A study of Mus musculus with 9 samples.

Results

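The genes described here are 10 genes for enzymes that cut the extracellular matrix or switch on plasminogen: the matrix metalloproteases Mmp2, Mmp3, Mmp9, Mmp10, Mmp12, Mmp13 and Mmp14, the membrane protease Adam8, the urokinase gene Plau and its receptor gene Plaur. They were chosen by gene symbol, and every probe set carrying 1 of these symbols was taken, which gave 15 probe sets of 45101 on the array and 10 genes of 18193 with a symbol. Expression was measured in 9 oral tumors of 1 year old mice, 3 in each of 3 genotype groups: p53-/- (both p53 alleles lost), p53R172H/- (1 mutant R172H allele and no normal allele) and p53R172H/+ (1 mutant allele beside a normal one, whose presence in the tumors was not checked). Ras activation is part of how the tumors of all groups arose, per the series' title, so every comparison is between tumors and none is against normal oral tissue. The labels put "K-" before each genotype without spelling it out. They name no driver line, say nothing of the tumors' stage or site in the mouth, and do not say whether the 3 tumors of a group came from separate animals, so p-values measure only the spread between these tumors.

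Matrix metalloproteases are zinc enzymes that are made as inactive proenzymes and become active once their propeptide is cut or displaced. Collagenases such as Mmp13 open fibrillar collagen, stromelysins such as Mmp3 and Mmp10 cut proteoglycans and other proenzymes, and the gelatinases Mmp2 and Mmp9 degrade denatured collagen and basement membrane. Plau, bound to Plaur at the cell surface, turns plasminogen into plasmin, a broad protease that can also activate metalloproteases. In skin and oral epithelium these genes are known from wound edges and from invasive carcinoma, where stroma and immune cells make many of them. Measured RNA therefore does not give the activity of the enzymes, and no protein or activity was measured.

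The promoter windows are shown because the stromelysin and collagenase genes are textbook targets of AP-1, the Fos and Jun dimer, and genes of both its subunits were measured in the same tumors. RefSeq windows (GRCm38.p6) were found for 7 of the 10 genes: Mmp3, Mmp10, Mmp12, Mmp13, Mmp14, Adam8 and Plaur. The 250 bases before the annotated start are printed 5′ to 3′ on the gene's strand, and capitals mark a match to the AP-1 motif, TGAGTCA or TGACTCA on the other strand. The windows lie at chr9:7272264-7272513 (+) for Mmp13, chr9:7502092-7502341 (+) for Mmp10, chr9:7445572-7445821 (+) for Mmp3, chr7:24462233-24462482 (+) for Plaur and chr7:139992563-139992812 (-) for Adam8.
Mmp13: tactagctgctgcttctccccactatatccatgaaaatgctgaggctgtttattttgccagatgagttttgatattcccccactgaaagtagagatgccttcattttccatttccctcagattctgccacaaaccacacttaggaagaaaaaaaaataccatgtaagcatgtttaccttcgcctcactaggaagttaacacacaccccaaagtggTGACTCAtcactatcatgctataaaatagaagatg
Mmp10: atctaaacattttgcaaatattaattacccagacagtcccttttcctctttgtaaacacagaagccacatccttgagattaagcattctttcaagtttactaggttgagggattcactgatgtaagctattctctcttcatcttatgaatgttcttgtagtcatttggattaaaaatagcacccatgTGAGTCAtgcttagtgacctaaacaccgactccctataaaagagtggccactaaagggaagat
Mmp3: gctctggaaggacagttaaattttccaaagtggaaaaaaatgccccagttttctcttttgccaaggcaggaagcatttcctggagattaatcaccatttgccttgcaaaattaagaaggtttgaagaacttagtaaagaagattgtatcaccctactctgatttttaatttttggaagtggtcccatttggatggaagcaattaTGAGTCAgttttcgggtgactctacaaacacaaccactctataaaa
Plaur: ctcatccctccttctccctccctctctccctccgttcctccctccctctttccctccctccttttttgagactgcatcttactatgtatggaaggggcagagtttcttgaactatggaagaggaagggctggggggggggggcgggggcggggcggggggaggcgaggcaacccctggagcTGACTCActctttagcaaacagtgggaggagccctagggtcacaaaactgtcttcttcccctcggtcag
Adam8: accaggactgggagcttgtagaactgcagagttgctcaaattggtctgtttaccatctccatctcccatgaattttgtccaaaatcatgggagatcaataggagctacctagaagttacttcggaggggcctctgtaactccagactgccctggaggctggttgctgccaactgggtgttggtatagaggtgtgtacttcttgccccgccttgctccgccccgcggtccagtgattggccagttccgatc
The first base of the match lies 35 bases before the start in Mmp13, 63 in Mmp10, 46 in Mmp3 and 69 in Plaur. Mmp12 has 2 windows, and the one at chr9:7347124-7347373 (+) holds a match 44 bases before its start. No match to these letters occurs in the windows of Adam8 and Mmp14. Thus 5 of 7 genes (71.4%) had a match, beside 432 of the 9799 tested genes with a window (4.41%). Among the other metalloprotease genes with a window it was 3 of 13 (23.1%). The shorter PEA3 letters of Ets factors, AGGAAG or CTTCCT, occurred in the windows of 5 of the 7 genes, beside 32.3% of all genes with a window. A match is a description of letters and not a measured binding site, and genes with it did not share 1 pattern: Plaur and Mmp13, which both carry it, had the narrowest and the widest spread of the 9 tested members.

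The median signal of an array ran from 109 to 123 signal units, so the 9 arrays were close in scale. Keratinocyte markers were present in all tumors at a similar summed signal, 254050 to 270306 over the 23 of 24 markers on the array. Skeletal muscle markers were far more variable, at 2396 to 51842 in p53R172H/- tumors, 4901 to 8217 in p53-/- tumors and 2022 to 8756 in p53R172H/+ tumors. The ratio of 3′ to 5′ signal of Actb, a measure of RNA integrity, was 1.50 to 1.69 in p53-/-, 1.31 to 1.56 in p53R172H/- and 1.36 to 1.48 in p53R172H/+ tumors. In bulk tumor RNA, fewer cells of a type and less RNA per cell cannot be told apart. Differences below are of log2 signal after values under 52.6 signal units were raised to that floor, with the standard error from a limma model of 12177 genes and p-values adjusted by Benjamini-Hochberg over all of them. The mutant groups are each set against the same 3 p53-/- tumors, so these comparisons are not independent of each other. No gene of the 12177 passed the adjusted threshold of 0.05 in any of the 4 comparisons. At an unadjusted p under 0.05 there were 1887 genes (15.5%) for p53R172H/- against p53-/-, 1254 (10.3%) for p53R172H/+ against p53-/-, 610 (5.01%) between the mutant groups and 1931 (15.9%) for both mutant groups together against p53-/-.

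Among the collagenases and stromelysins, Mmp13 had the widest spread of log2 signal of all members. Mmp13, collagenase 3, read 276, 52.3 and 254 signal units in the 3 p53-/- tumors, 299, 618 and 518 in p53R172H/- tumors, and 1104, 964 and 727 in p53R172H/+ tumors. Every p53R172H/- tumor lay above every p53-/- tumor, and every p53R172H/+ tumor lay above all 6 others, although p53R172H/- tumor 1 was only slightly above p53-/- tumor 1. The group means were 194 ± 124, 478 ± 163 and 932 ± 190 signal units (SD, n = 3 each). Mmp13 was 2.96-fold higher in p53R172H/- than in p53-/- tumors, a log2 difference of 1.56 ± 0.57 (SE; adjusted p = 0.276, limma with Benjamini-Hochberg). In p53R172H/+ tumors it was 5.94-fold higher than in p53-/- tumors, a log2 difference of 2.57 ± 0.57 (adjusted p = 0.360, limma). The low reading of p53-/- tumor 2, which lay under the floor, carried part of both differences. Without that tumor the log2 difference was 0.79 in p53R172H/- and 1.79 in p53R172H/+ tumors. Between the mutant groups the groups also did not overlap, with p53R172H/- lower by a log2 difference of -1.01 ± 0.57 (95% interval -2.30 to 0.29; adjusted p = 0.946, limma).

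**Figure D1:**
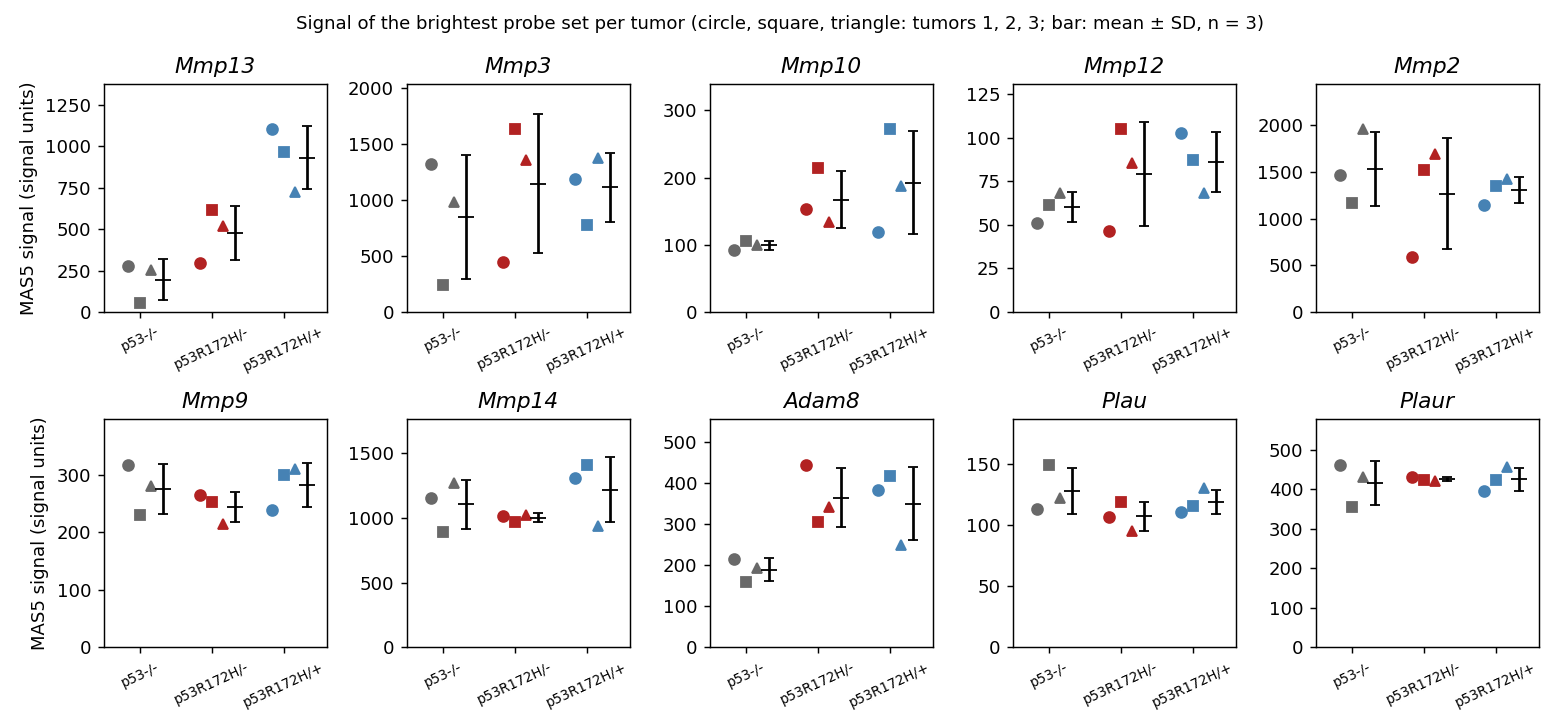
MAS5 signal (linear axis from 0, signal units) of the brightest probe set of each of the 10 genes; circles, squares and triangles are tumors 1, 2 and 3 of a genotype group, and the black bar is the group mean ± SD (n = 3). Mmp13 lies at 52.3 to 276 signal units in p53-/- and at 727 to 1104 in p53R172H/+ tumors, Adam8 and Mmp10 separate p53-/- from both mutant groups, and Plaur stays between 354 and 462 in all tumors.

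Mmp10, stromelysin 2, followed the p53-/- against mutant split at a low level. Its signals were 91.8, 106 and 99.4 in p53-/- tumors, 153, 214 and 134 in p53R172H/- tumors and 119, 272 and 188 in p53R172H/+ tumors. All 6 mutant tumors lay above all 3 p53-/- tumors, the nearest pair being 119 and 106. Mmp10 was higher by a log2 difference of 0.73 ± 0.28 in p53R172H/- tumors (1.66-fold; adjusted p = 0.288, limma) and by 0.88 ± 0.28 in p53R172H/+ tumors (1.84-fold; adjusted p = 0.398, limma). The mutant groups overlapped each other, at a log2 difference of -0.15 ± 0.28. Its p53-/- signals all lay under the 115 signal units a gene's mean had to reach to be tested, so Mmp10 was tested only because its mutant tumors were higher. Without the highest p53R172H/+ tumor, tumor 2, the difference for that group was 0.59.

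Mmp3, stromelysin 1, had the widest spread after Mmp13, with overlapping groups. It read 1318, 238 and 984 signal units in p53-/- tumors, 445, 1633 and 1356 in p53R172H/- tumors and 1191, 776 and 1373 in p53R172H/+ tumors. The lowest were p53-/- tumor 2 and p53R172H/- tumor 1, and all 3 groups overlapped. The log2 difference from p53-/- was 0.56 ± 0.66 for p53R172H/- (95% interval -0.93 to 2.05; adjusted p = 0.685, limma) and 0.68 ± 0.66 for p53R172H/+ tumors (95% interval -0.81 to 2.17; adjusted p = 0.710, limma). Leaving out single tumors moved the first of these between -0.19 and 1.14 and the second between -0.07 and 1.16, the lowest of both without p53-/- tumor 2.

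Mmp12, the macrophage elastase, lay near the lower end of the measurable range and was under the filter. Its signals were 51.2, 61.2 and 68.1 in p53-/- tumors, 46.6, 105 and 85.7 in p53R172H/- tumors and 103, 87.0 and 68.1 in p53R172H/+ tumors, of which 51.2 and 46.6 were under the floor. In a fit of all 34945 probe sets with 1 symbol, Mmp12 had a log2 difference from p53-/- of 0.37 ± 0.27 in p53R172H/- and 0.49 ± 0.27 in p53R172H/+ tumors (adjusted p = 0.577 and 0.603, limma). The latter groups just failed to overlap, at 68.12 against 68.08 signal units.

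The gelatinase Mmp2 was lower on average in both mutant groups, and the groups overlapped. Its brighter probe set read 1468, 1169 and 1957 in p53-/- tumors, 587, 1525 and 1692 in p53R172H/- tumors and 1148, 1345 and 1428 in p53R172H/+ tumors. Only p53R172H/- tumor 1 lay well apart, under all 8 other tumors. The log2 difference from p53-/- was -0.38 ± 0.36 in p53R172H/- (adjusted p = 0.610, limma) and -0.20 ± 0.36 in p53R172H/+ tumors (adjusted p = 0.852, limma). Without p53R172H/- tumor 1 the first difference turned to 0.10, and without p53-/- tumor 3 the second was -0.00943. Mmp2's other probe set tracked the first across the 9 tumors (r = 0.972) and gave -0.49 and -0.14 for the same comparisons.

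For the other gelatinase, Mmp9, the 2 probe sets differed. The brighter read 318, 231 and 279.8 in p53-/- tumors, 265, 253 and 215 in p53R172H/- tumors and 239, 299.5 and 310.1 in p53R172H/+ tumors, and all groups overlapped. Its log2 difference from p53-/- was -0.17 ± 0.15 in p53R172H/- and 0.04 ± 0.15 in p53R172H/+ tumors (adjusted p = 0.590 and 0.937, limma). The dimmer read 159, 169 and 112 in p53-/- tumors, 214, 221 and 199.5 in p53R172H/- tumors and 199, 409 and 286 in p53R172H/+ tumors. Here all 6 mutant tumors lay above all p53-/- tumors. In the fit of all probe sets this probe set was higher by 0.55 ± 0.27 in p53R172H/- (1.47-fold; adjusted p = 0.451, limma) and by 0.99 ± 0.27 in p53R172H/+ tumors (1.98-fold; adjusted p = 0.440, limma). Both list the same transcript accession in the platform's annotation, and their log2 signals correlated at r = 0.224 over the 9 tumors, which share array and RNA. Which of them follows Mmp9 transcript was not tested, so a direction for Mmp9 depends on the probe set.

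**Figure D2:**
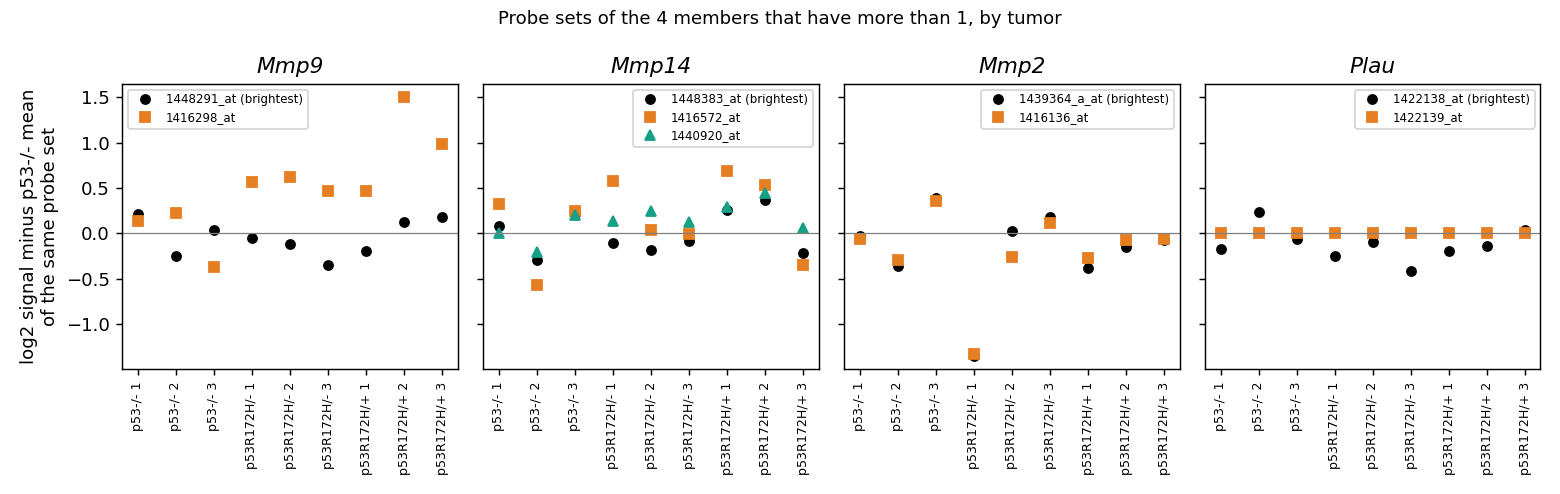
Log2 signal of every probe set of Mmp9, Mmp14, Mmp2 and Plau in the 9 tumors, each less its own mean over the 3 p53-/- tumors; black circles are the brightest probe set and coloured symbols the dimmer ones. The probe sets of Mmp2 lie almost on each other (r = 0.972), those of Mmp9 part in the mutant tumors (r = 0.224), and the dimmer Plau probe set is at the floor in all tumors.

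At the cell surface, Mmp14, the membrane-type metalloprotease that activates pro-Mmp2, was at a similar signal in all groups. Its brightest probe set read 1151, 890.0 and 1265 in p53-/- tumors, 1013, 963 and 1024 in p53R172H/- tumors and 1306, 1409 and 936 in p53R172H/+ tumors. All groups overlapped, and the p53R172H/- tumors were the most alike. The log2 difference from p53-/- was -0.12 ± 0.17 in p53R172H/- (95% interval -0.51 to 0.26) and 0.14 ± 0.17 in p53R172H/+ tumors (95% interval -0.25 to 0.52). Mmp14 had 2 dimmer probe sets, which gave 0.20 and 0.17 for the first comparison and 0.29 and 0.27 for the second. Their correlation with each other and with the brightest was 0.717 to 0.777 over the 9 tumors.

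Adam8, a membrane protease of leukocytes and tumor cells, separated p53-/- from mutant tumors most evenly. It read 215, 159 and 192 signal units in p53-/- tumors, 445, 306 and 343 in p53R172H/- tumors and 382, 417 and 249 in p53R172H/+ tumors. All 6 mutant tumors were above all 3 p53-/- tumors, and the mutant groups overlapped each other. The group means were 189 ± 27.8, 365 ± 71.9 and 349.5 ± 88.6 signal units (SD, n = 3 each). Adam8 was 1.92-fold higher in p53R172H/- tumors, a log2 difference of 0.94 ± 0.22 (95% interval 0.45 to 1.43; adjusted p = 0.216, limma). In p53R172H/+ tumors it was 1.82-fold higher, a log2 difference of 0.87 ± 0.22 (95% interval 0.38 to 1.35; adjusted p = 0.364, limma). Between the mutant groups the difference was 0.08 ± 0.22 (95% interval -0.41 to 0.57). Leaving out any single tumor kept the first difference between 0.79 and 1.06 and the second between 0.72 and 1.09.

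The urokinase gene Plau and its receptor gene Plaur had the lowest standard deviations of log2 signal over the 9 tumors, 0.18 and 0.11. Plau's brighter probe set read 113, 149.7 and 122 in p53-/- tumors, 107, 119 and 95.8 in p53R172H/- tumors and 111, 116 and 130.3 in p53R172H/+ tumors. Its groups overlapped, and its log2 difference from p53-/- was -0.25 ± 0.15 in p53R172H/- (95% interval -0.58 to 0.07) and -0.10 ± 0.15 in p53R172H/+ tumors (95% interval -0.43 to 0.23). The 6 mutant tumors averaged 113 signal units, under the filter of 115, and the p53-/- tumors 128. Plau was thus tested only because its p53-/- tumors were higher. Plau's other probe set read 23.1 to 42.7 signal units, under the floor on all 9 arrays, and so gave no log2 difference. Plaur read 462, 354 and 432 in p53-/- tumors, 432, 424 and 422 in p53R172H/- tumors and 397, 423 and 456 in p53R172H/+ tumors. The Plaur differences from p53-/- were 0.04 ± 0.11 in both mutant groups (95% intervals -0.21 to 0.30 and -0.22 to 0.29). The upper limits, 0.30 and 0.29, lie under the Adam8 differences of 0.94 and 0.87.

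**Figure D3:**
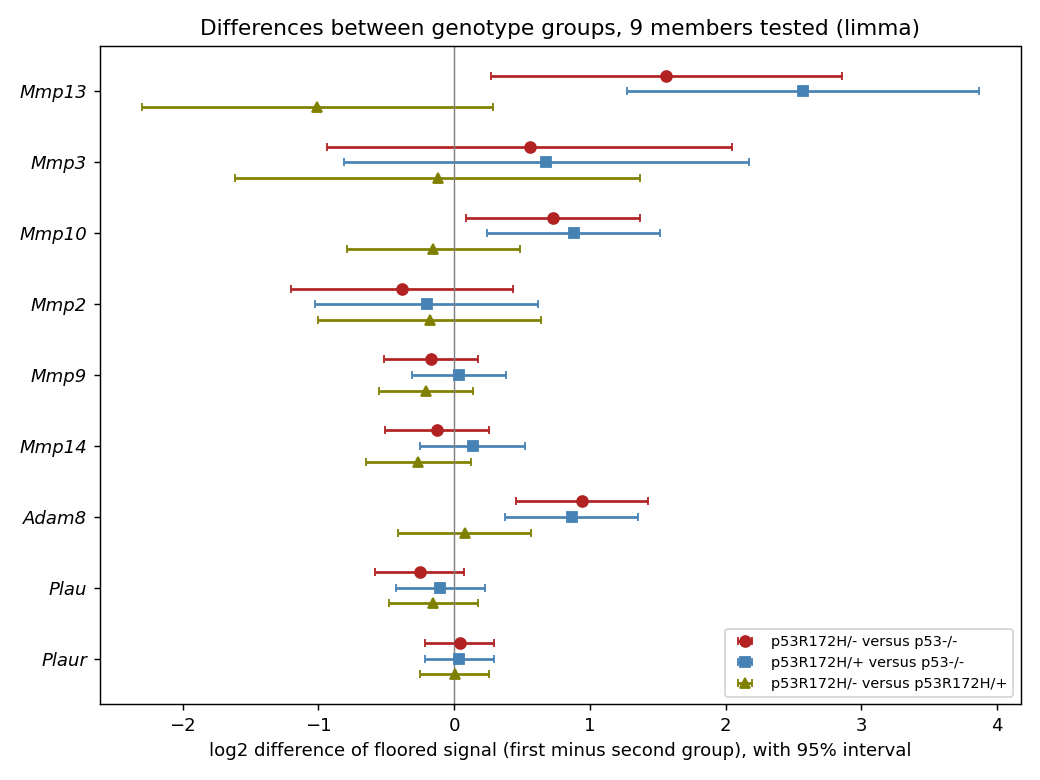
Log2 difference of each gene's brightest probe set in 3 comparisons, with its 95% interval from the limma model; circles are p53R172H/- and squares p53R172H/+ against p53-/-, triangles p53R172H/- against p53R172H/+, and the vertical line marks no difference. The intervals of Mmp13, Adam8 and Mmp10 lie above 0 against p53-/- tumors, that of Mmp3 is the widest and that of Plaur the narrowest, and no gene passed the adjusted threshold.

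Counted over the list, 9 of the 10 genes were tested. For p53R172H/- against p53-/-, 0 of 9 passed the adjusted threshold (0% of all genes), and 3 of 9 (Mmp13, Adam8 and Mmp10) were higher at an unadjusted p under 0.05, where 6.46% of all genes were higher and 9.03% lower. The same 3 had groups that did not overlap with the mutant tumors higher, against 9.09% of all genes. No member had them lower, where 13.8% of all genes did, which makes 22.9% in either direction. For p53R172H/+ against p53-/-, again 0 of 9 passed (0% of all genes), and Mmp13, Adam8 and Mmp10 were higher at an unadjusted p under 0.05, against 4.75% of all genes, while 0 of 9 were lower, against 5.54% (10.3% in either direction). Their groups did not overlap, against 7.09% of all genes in that direction, and 0 of 9 had the mutant tumors lower without overlap, against 8.85% (15.9% in either direction). In these comparisons 5 and 7 of the 9 genes were higher on average, where 43.9% of all genes were higher in each, and the members' median log2 difference was 0.04 and 0.14 beside -0.03 and -0.03 over all genes. The 3 genes made up 33.3% of the 9 tested, while the median member lay near 0. Mmp10 entered the test only through its mutant tumors and Plau only through its p53-/- tumors. A count that includes either is a description and supports nothing by itself. The members and the other lists were also chosen with earlier results of these data known. All counts over a list, here and below, are therefore descriptions.

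Between p53R172H/- and p53R172H/+ tumors, 0 of 9 genes passed the adjusted threshold (0% of all genes). None had an unadjusted p under 0.05, where 2.03% of all genes were higher and 2.98% lower in p53R172H/- tumors (5.01% in either direction). Groups did not overlap for 1 of 9, Mmp13, which was lower in p53R172H/- tumors, against 6.64% of all genes, and for 0 of 9 with p53R172H/- higher, against 5.26% (11.9% in either direction). Of the 9, 2 were higher on average in p53R172H/- tumors and 7 lower, where 48.1% of all genes were higher, with a median of -0.15 beside -0.01 over all genes. With both mutant groups set against p53-/- as 1 mean, 0 of 9 passed (0% of all genes). Mmp13 (4.19-fold; log2 difference 2.07 ± 0.50), Adam8 (1.87-fold; 0.90 ± 0.19) and Mmp10 (1.75-fold; 0.81 ± 0.24) were again higher at an unadjusted p under 0.05, against 6.84% of all genes, and 0 of 9 were lower, against 9.02% (15.9% in either direction). Their adjusted p-values were 0.195, 0.187 and 0.235 (limma with Benjamini-Hochberg). Mmp13 was at 1.29 without p53-/- tumor 2. For these 3 the 6 mutant tumors did not overlap the 3 p53-/- tumors, against 3.33% of all genes in that direction. None of the 9 had all mutant tumors lower, against 3.93% (7.26% in either direction), and 6 of 9 were higher on average, against 43.6%.

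How far the genes varied among single tumors differed widely and was not always tied to genotype. The standard deviation of log2 signal over the 9 tumors was 1.35 for Mmp13, 0.92 for Mmp3, 0.54 for Mmp10, 0.53 for Adam8 and 0.50 for Mmp2, beside a median of 0.18 over all tested genes. By spread these 5 ranked high among all tested genes, from the 95.2nd percentile for Mmp2 to the 99.3rd for Mmp13. Mmp14, Mmp9, Plau and Plaur were at 0.24, 0.20, 0.18 and 0.11. From the lowest to the highest tumor the signal differed 6.86-fold for Mmp3, 3.33-fold for Mmp2 and 1.30-fold for Plaur. For Mmp13 no exact ratio is given, since its lowest tumor lay under the floor.

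A pair of tumors carried much of that spread. In p53-/- tumor 2 the signal was the lowest of all 9 tumors for 5 of the 10 genes, Mmp3, Mmp13, Mmp14, Adam8 and Plaur, and the highest for Plau. The same tumor had the lowest macrophage score, the mean log2 signal of the macrophage markers less its mean over the 9 tumors, at -0.59, and a fibroblast score of -0.43. In p53R172H/- tumor 1, Mmp2 lay 1.16 and Mmp3 1.02 under their own means, beside a fibroblast score of -0.66, the lowest of all, and a macrophage score of -0.58. The lowest Mmp3 signals and the lowest Mmp2 signal were thus in tumors with low stromal marker signal. In p53-/- tumor 2, however, Mmp2 lay only 0.16 under its mean. Hair keratin markers were low in these tumors too. Their mean log2 signal was 7.97 in p53-/- tumor 2 and 7.10 in p53R172H/- tumor 1. Only p53R172H/+ tumor 2 lay under both, at 6.78, with Mmp3 at 776 signal units and a fibroblast score of 0.17. The part of stromal content or of hair tissue in these values was not tested.

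**Figure D4:**
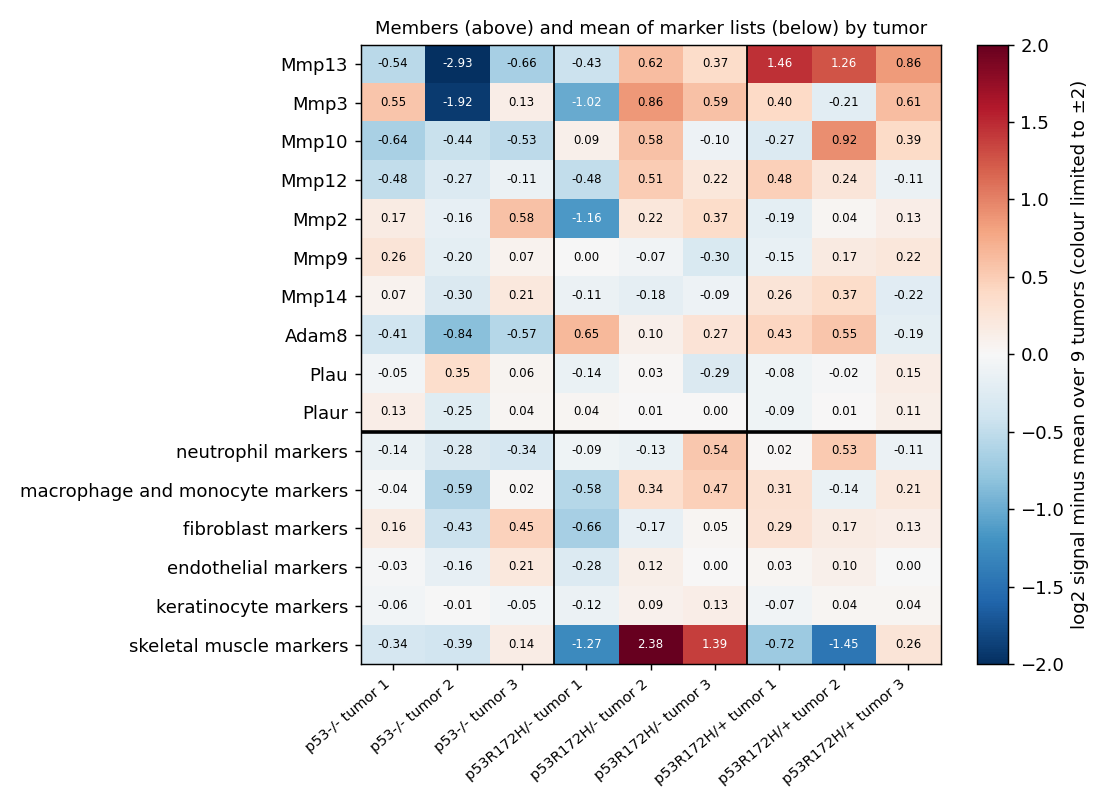
Log2 signal of the 10 genes and mean log2 signal of the marker lists in each tumor, each less its own mean over the 9 tumors (columns are tumors by group, rows are genes and lists, red above and blue below the mean, colour limited to ±2). P53-/- tumor 2 is low for Mmp3 at -1.92 and for macrophage markers at -0.59, and p53R172H/- tumor 1 is low for Mmp2 at -1.16 and for fibroblast markers at -0.66.

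Neutrophils and macrophages are known sources of Mmp9, Mmp12 and Adam8, and most of their markers were higher on average in mutant tumors, as Adam8 and Mmp10 were. The summed signal of the 17 of 21 neutrophil markers on the array was 22362 to 25193 in p53-/-, 25613 to 35869 in p53R172H/- and 24025 to 33703 in p53R172H/+ tumors. S100a8 and S100a9 made up most of each sum, at 10840 to 15295 and 8400 to 14495 signal units over the 9 tumors. In mean log2 signal the neutrophil list was 8.55 to 8.74 in p53-/- and 8.75 to 9.42 in p53R172H/- tumors, and 8.77 to 9.41 in p53R172H/+ tumors. Among its 13 tested genes, 9 were higher on average in p53R172H/- and 11 in p53R172H/+ tumors, with 0 and 3 at an unadjusted p under 0.05. Of all genes, 43.9% were higher on average in each mutant group, and 6.46% and 4.75% were higher at that p. Cxcr2 and Elane were lower on average in both mutant groups. Cxcr2 read 137 to 210 in p53-/- and 124 to 155 in mutant tumors, and Elane 194 to 327 and 184 to 265. The macrophage list (21 of 22 on the array) had a summed signal of 7282 to 13441 in p53-/-, 7842 to 16261 in p53R172H/- and 11500 to 18733 in p53R172H/+ tumors. With the neutrophil score as a covariate, the log2 differences of Adam8 were 0.81 in p53R172H/- and 0.72 in p53R172H/+ tumors, those of Mmp10 were 0.68 and 0.83, and those of Mmp13 were 1.39 and 2.37. Each kept its direction and was smaller than without the covariate. The score was itself higher in mutant tumors, so the covariate cannot separate neutrophil content from genotype. The part of neutrophils was not tested. The dimmer Mmp9 probe set was highest, at 409, in p53R172H/+ tumor 2, where the neutrophil score was 0.53, but p53R172H/- tumor 3, with a neutrophil score of 0.54, read 199.5. Adam8 was highest, at 445, in p53R172H/- tumor 1, where the neutrophil score was -0.09 and the macrophage score -0.58. It was lowest, at 159, in p53-/- tumor 2, where these scores were -0.28 and -0.59. A like value with macrophage content as covariate was not computed, and the part of macrophages was not tested.

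Fibroblasts are known sources of Mmp2, Mmp14 and Mmp3, and most of their markers were lower on average in p53R172H/- than in p53-/- tumors. All 22 were on the array, with a summed signal of 37802 to 60717 in p53-/-, 32078 to 43190 in p53R172H/- and 46587 to 56859 in p53R172H/+ tumors. Of 21 tested, 14 were lower on average in p53R172H/- than in p53-/- tumors, and the list's median log2 difference was -0.40. Of these 14, 12 had an unadjusted p under 0.05, where 9.03% of all genes were lower at that p. The other 7 were higher on average, where 43.9% of all genes were. Among them Dcn read 1207, 6349 and 5253 signal units in p53R172H/- and 2951, 919 and 3934 in p53-/- tumors. The summed signals of these groups overlapped. Whether p53R172H/- tumors held fewer fibroblasts was not tested. Between the mutant groups 17 of 21 were lower in p53R172H/-, 13 of them at an unadjusted p under 0.05, against 2.98% of all genes. Bone and osteoclast cells, which tissue from the jaw could hold, also express Mmp13 and Mmp9. Their markers (14 of 16 on the array) summed to 2585 to 3437 in p53-/-, 2276 to 2706 in p53R172H/- and 2471 to 3339 in p53R172H/+ tumors. Calcr, the osteoclast calcitonin receptor, and Phex, an osteocyte gene, were at the floor on all 9 arrays. Acp5 and Ctsk of the same list read 958 to 1677 and 273 to 1080 signal units over the 9 tumors. Whether the tumors held bone cells was not tested. Cartilage markers (12 of 12) summed to 1114 to 1575 in p53-/-, 996 to 1108 in p53R172H/- and 1005 to 1173 in p53R172H/+ tumors, with Matn1 and Hapln1 at the floor on all 9 arrays. In p53-/- tumor 2, Col2a1 read 288 and Acan 212, against 88.6 to 122 and 90.2 to 125 in the other tumors. Chad, at 155 there, lay within the 123 to 165 of the others.

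In the reference gene order, Mmp13, Mmp12, Mmp3 and Mmp10 lie in 1 cluster of 10 metalloprotease genes on chromosome 9, together with Mmp1b, Mmp1a, Mmp8, Mmp27, Mmp20 and Mmp7. Of that cluster 3 genes were tested, Mmp13, Mmp3 and Mmp10. The collagenase-like Mmp1a and the enamel protease Mmp20 were at the floor on all 9 arrays.

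Of the other metalloproteases, those tested were mostly lower on average in mutant tumors. Of 16 listed, 11 were on the array and 4 were tested, and 0 of 4 passed the adjusted threshold in any comparison. Of all genes, 9.03% were lower and 6.46% higher in p53R172H/- than in p53-/- tumors at an unadjusted p under 0.05. Of these 4 metalloproteases, 3 were lower at that p and none higher. They were Mmp16, a membrane-type enzyme (227 ± 50.0 against 163 ± 14.5 signal units; log2 difference -0.46 ± 0.15), Mmp23 (-0.36 ± 0.11) and Mmp11, the stromal stromelysin 3 (-0.62 ± 0.27). The adjusted p-values were 0.264, 0.253 and 0.313 (limma with Benjamini-Hochberg). Mmp16 was at -0.28 without p53-/- tumor 2, and Mmp11 at -0.28 without p53-/- tumor 3. Mmp11 was tested only because its p53-/- tumors were higher, so the count of 3 that includes it is a description. In p53R172H/+ against p53-/- tumors 4 of 4 were lower on average and none had an unadjusted p under 0.05, against 10.3% of all genes. Of all genes, 43.9% were higher on average in that comparison. Mmp23 was also lower in p53R172H/- than in p53R172H/+ tumors (-0.36 ± 0.11; adjusted p = 0.946, limma). Between the mutant groups 1 of 4 was lower at an unadjusted p under 0.05, against 2.98% of all genes.

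Of 9 genes listed with the inhibitors of metalloproteases, 5 were tested and 0 passed the adjusted threshold. Of these 5, 4 were lower on average in each mutant group than in p53-/- tumors, where 43.9% of all genes were higher in each. At an unadjusted p under 0.05, 1 was lower and 0 higher against p53-/- tumors in each mutant group. It was Spock2, a testican proteoglycan gene listed by its family. Whether Spock2 inhibits metalloproteases was not tested. Of all genes, 9.03% were lower at that p in p53R172H/- and 5.54% in p53R172H/+ tumors. Spock2 was lower by a log2 difference of -0.73 ± 0.22 in p53R172H/- (adjusted p = 0.246, limma) and -0.52 ± 0.22 in p53R172H/+ tumors (adjusted p = 0.471, limma). Timp1, the secreted inhibitor that binds active Mmp9 and Mmp3, read 743, 254 and 476 in p53-/-, 294, 416 and 407 in p53R172H/- and 547, 308 and 916 in p53R172H/+ tumors. Its groups overlapped, at -0.28 ± 0.44 in p53R172H/- and 0.26 ± 0.44 in p53R172H/+ tumors. Both signs turned with 1 tumor left out, the first to 0.0817 without p53-/- tumor 1 and the second to -0.15 without p53-/- tumor 2.

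Of 19 other genes of the plasminogen system, 11 were tested and 0 passed the adjusted threshold. Plat, the tissue-type activator, read 254, 381 and 289 in p53-/-, 997, 285 and 506 in p53R172H/- and 483, 1104 and 262 in p53R172H/+ tumors. Plat was higher on average in both mutant groups, by 0.79 ± 0.54 and 0.77 ± 0.54, and a single high tumor carried much of each difference. Without p53R172H/- tumor 1 the first was 0.32, and without p53R172H/+ tumor 2 the second was 0.23. Mrc2, the collagen uptake receptor that joins Plaur at the cell surface, was lower in p53R172H/- than in p53-/- tumors (-0.53 ± 0.20; adjusted p = 0.277, limma) at an unadjusted p of 0.0237, and at -0.35 without p53-/- tumor 3. Mrc2 was the 1 of 11 lower there at an unadjusted p under 0.05, and 0 were higher, against 9.03% and 6.46% of all genes. The annexin Anxa2, a plasminogen docking protein, was higher in both mutant groups together (0.24 ± 0.10; adjusted p = 0.313, limma). There 1 of 11 was higher at that p, against 6.84% of all genes. Between the mutant groups, Plgrkt, a plasminogen receptor gene (-0.23 ± 0.09), and Srpx2 (-0.50 ± 0.21) were lower in p53R172H/- tumors at that p (adjusted p = 0.946 for both, limma). These were 2 of 11, against 2.98% of all genes.

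In the ADAM and ADAMTS families 15 of 27 genes were tested and 0 passed the adjusted threshold. At an unadjusted p under 0.05, 2 were lower and 0 higher in p53R172H/- than in p53-/- tumors, Adam15 (-0.41 ± 0.12; adjusted p = 0.241, limma) and Adam28 (-0.56 ± 0.18; adjusted p = 0.261, limma). Of all genes, 9.03% were lower and 6.46% higher at that p. In p53R172H/+ tumors 1 was higher and 0 lower, the aggrecanase Adamts4 (202 ± 77.7 against 100.2 ± 14.6 signal units; 0.93 ± 0.29; adjusted p = 0.383, limma). Of all genes, 4.75% were higher and 5.54% lower in p53R172H/+ tumors at that p. Adamts4 was tested only because its p53R172H/+ tumors were higher. Adamts4 (-0.71 ± 0.29) and Adamts12 (-0.72 ± 0.29) were lower in p53R172H/- than in p53R172H/+ tumors at that p (adjusted p = 0.946 for both, limma). These were 2 of 15, against 2.98% of all genes. Adamts12 also passed the filter only through its p53R172H/+ tumors, and its difference was -0.45 without p53R172H/+ tumor 2 and -1.10 without tumor 3, where Adamts4 was at -1.09.

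Of the 22 tested genes for other proteases, 0 passed the adjusted threshold, and at an unadjusted p under 0.05 there were 1 higher and 1 lower in p53R172H/- and 0 higher and 4 lower in p53R172H/+ than in p53-/- tumors. Of all genes, 6.46% were higher and 9.03% lower at that p in p53R172H/-, and 4.75% and 5.54% in p53R172H/+ tumors. St14, the epithelial serine protease matriptase, was lower in p53R172H/- (-0.25 ± 0.10) and in p53R172H/+ tumors (-0.29 ± 0.10), with groups that did not overlap. Without overlap 2 of the 22 were lower in each mutant group, against 13.8% and 8.85% of all genes. Klk10, a kallikrein of squamous epithelium, was higher in p53R172H/- tumors (0.52 ± 0.22; adjusted p = 0.301, limma), and at 0.34 without p53R172H/- tumor 1. The others lower in p53R172H/+ tumors were Klk7, a kallikrein of skin shedding (-0.44 ± 0.17), the proprotein convertase Pcsk6 (-0.34 ± 0.15) and the dipeptidyl peptidase Dpp4 (-0.27 ± 0.10). Klk7 was at -0.24 without p53R172H/+ tumor 2. Between the mutant groups Dpp4 was higher (0.30 ± 0.10) and the secreted serine protease Htra1 lower (-0.38 ± 0.16) in p53R172H/- tumors, with Htra1 at -0.21 without p53R172H/+ tumor 2. There 1 of 22 was higher and 1 lower at that p, against 2.03% and 2.98% of all genes. The lysosomal cathepsins Ctsz (0.59 ± 0.24) and Ctsb (0.17 ± 0.07) were higher in both mutant groups together, at 0.28 and 0.0930 without p53-/- tumor 2. In that comparison 3 of 22 were higher and 1 lower at that p, against 6.84% and 9.02% of all genes.

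Most regulators of protease transcription were higher on average in both mutant groups. Of 18 tested, 14 were higher on average in p53R172H/- tumors, 4 of them at an unadjusted p under 0.05 and 0 lower, against 6.46% and 9.03% of all genes. In p53R172H/+ tumors it was 13 of 18, with 3 higher and 0 lower at that p, against 4.75% and 5.54% of all genes. Of all genes, 43.9% were higher on average in each mutant group. The 4 in p53R172H/- tumors were the AP-1 subunits Fos and Junb and the interleukins Il1a and Il1b, and the 3 in p53R172H/+ tumors were Il1b, Junb and the Ets factor Etv5. By adjusted p 0 of 18 passed in any comparison. For AP-1, Fos was at 0.93 ± 0.24 in p53R172H/- tumors and Junb at 0.40 ± 0.13 there and 0.50 ± 0.13 in p53R172H/+ tumors (adjusted p = 0.216, 0.261 and 0.364, limma). Without p53-/- tumor 1 Fos was at 0.67. Other subunits were lower without overlap: Jund in p53R172H/- tumors (850.0 to 988 against 1018 to 1380 signal units; -0.29 ± 0.16; adjusted p = 0.403, limma) and Fosl2 in p53R172H/+ tumors (1334 to 1516 against 1563 to 1774; -0.22 ± 0.11; adjusted p = 0.524, limma). Jund and Fosl2 were named after their values were seen. In each mutant group 1 of 18 was lower without overlap, against 13.8% of all genes in p53R172H/- and 8.85% in p53R172H/+ tumors. Another 2 of 18 were higher without overlap in each, against 9.09% and 7.09%. Il1a, an epithelial alarm cytokine, averaged 187 ± 60.1 signal units in p53-/- and 453 ± 217 in p53R172H/- tumors, a log2 difference of 1.22 ± 0.42 (adjusted p = 0.265, limma). It was 0.86 without p53R172H/- tumor 1. Etv5 averaged 131 ± 23.8 in p53-/- and 179 ± 28.7 in p53R172H/+ tumors, a difference of 0.46 ± 0.17 (adjusted p = 0.443, limma), and 0.32 without p53-/- tumor 2.

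Among the members themselves, the highest Pearson's r of log2 signal over the 9 tumors was 0.738 between Mmp3 and Mmp13, both lowest in p53-/- tumor 2, and the lowest was -0.712 between Adam8 and Plau. The genes whose log2 signal ran most like each member across the 9 tumors were ranked by Pearson's r over all tested genes, as a description over points that share arrays and RNA. Mmp13 ran most like Tbc1d8b (0.970), Rabep1 (0.967) and Ctps2 (0.966). For Adam8 they were Grpel2 (0.987), Ttc1 (0.977) and Ugdh (0.976). For Mmp10 they were Cd79b (0.887), Mctp2 (0.880) and Poldip3 (0.880). Mmp3 ran most like Ms4a6d (0.969), Adam9 (0.963) and Ltb4r1 (0.961), and Mmp2 most like Epas1 (0.994), Vwf (0.953) and Pdzd2 (0.949). Mmp9's brighter probe set ran with Hemk1 (0.924), Dtd2 (0.895) and Tff1 (0.887). Mmp14 ran with Gm1976 (0.944), Tmem154 (0.939) and Gask1b (0.937), Plau with Ly6g2 (0.965), Prr27 (0.962) and Atp8a2 (0.960), and Plaur with Exoc3 (0.931), Rorb (0.921) and Nubp2 (0.916). No member was among the 3 nearest genes of another member.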

How the data were processed

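Per the labels' protocols, column-purified total RNA of 9 mouse oral tumors was labelled with biotin and put on Affymetrix arrays. The deposited values are linear signal intensities, 1 for each probe set in each tumor, which the authors made with MAS5, per the submitters' processing notes. The version of MAS5, its scaling and the genome build of the probe sets: not given in the sources used here. An array has no counting depth, so the number of tumors limits the precision.

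The array's 45101 probe sets include 64 controls. Of the others 34945 carried a single gene symbol, 932 more than 1 and 9160 none, and only the first kind was used. In the reference gene table (GRCm38.p6) 34741 of these were found and 0 symbols changed. Promoter windows are RefSeq's for that build. The targeted gene is not reported here and did not serve to check the labels. At most 0.0421% of values were identical between any pair of arrays.

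Signals under the 20th percentile (52.6 signal units) were set to it before taking log2, without normalization between arrays. A gene's probe set was its brightest, and genes averaging under the median probe set (115 signal units) were dropped, leaving 12177 of 18193. The model had 1 mean for each genotype and used every array (limma 3.58.1 in R 4.3.3, lmFit, eBayes with trend). Tests were two-sided, adjusted by Benjamini-Hochberg over all genes, with a threshold of 0.05. A fit of all 34945 probe sets gave the values of dimmer probe sets and of Mmp12. The fit across genes was tested on simulated data.

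All members were to be named, and of each pathway list Timp1, Plat and up to 4 genes with the smallest unadjusted p under 0.05 in each comparison. The members and lists were chosen with earlier results of these data known. Alternatives were the normalization, floor, filter, probe set rule, variance model, groups fitted, a replicate block, marker scores as covariates and leaving out each tumor, the last also for dimmer probe sets, added after seeing the data. Tumor numbers do not pair the groups: deviations from the group means correlated at -0.49 to 0.24 in the 9 same-numbered pairs, with 4 over 0.1, and at -0.47 to 0.52 in the 18 others.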

Additional observations from a re-analysis of the deposited data

How the results depend on the processing

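Of the 10 genes, 0 of the 9 tested passed the adjusted threshold under any alternative run. Over all genes the count of calls was 0 as reported, 22 for p53R172H/- against p53-/- with the muscle marker score as a covariate, and 0 to 1 for both mutant groups against p53-/- with single tumors left out, the 1 arising without p53R172H/+ tumor 3. The cause was not tested. With the replicate number as a block, 0 genes were called, and 1817, 1191, 630 and 1880 genes had an unadjusted p under 0.05 in the 4 comparisons in the order of the report. The block changed no call. The directions of Mmp13, Adam8 and Mmp10 against p53-/- were the same under all alternatives, and Adam8 in p53R172H/- tumors had adjusted p-values of 0.0519 to 0.508 (limma). With the neutrophil score as covariate the sign turned for Mmp14 in p53R172H/+ (-0.00488) and in both mutant groups together (-0.13) and for Plau in p53R172H/+ tumors (0.0219). With the muscle score it turned for Mmp3 in p53R172H/- tumors (-0.00442) and for Plaur between the mutant groups (-0.00933), which quantile normalization also turned (-0.00149). With the mean of all probe sets of a gene it turned for Mmp14 in p53R172H/- (0.0822) and for Mmp9 in p53R172H/- (0.19) and in both mutant groups (0.35), and with median centring for Mmp9 in both (0.00204). Leaving out single tumors turned these signs. Against p53-/-, the p53R172H/- differences ranged over -0.66 to 0.10 for Mmp2, -0.19 to 1.14 for Mmp3 and -0.0695 to 0.12 for Plaur. Those of p53R172H/+ ranged over -0.0732 to 1.16 for Mmp3, -0.0844 to 0.15 for Mmp9, -0.00912 to 0.32 for Mmp14, -0.19 to 0.0142 for Plau and -0.0736 to 0.12 for Plaur. For both mutant groups together they ranged over -0.13 to 1.10 for Mmp3, -0.19 to 0.0417 for Mmp9, -0.14 to 0.11 for Mmp14 and -0.0715 to 0.12 for Plaur. Between the mutant groups they ranged over -0.46 to 0.30 for Mmp2, -0.48 to 0.46 for Mmp3, -0.46 to 0.14 for Mmp10, -0.15 to 0.22 for Adam8 and -0.0452 to 0.0557 for Plaur. Signals near the floor of 52.6 limit Mmp12, Plau and the lowest Mmp13 tumor.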
